A study of Saccharomyces cerevisiae with 27 samples.

Results

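The 36 genes described here are nuclear genes of the respiratory chain and the ATP synthase of the yeast Saccharomyces cerevisiae. They were chosen by name, though with earlier results of these data known, and they make up 36 of the 5995 genes in the files. They comprise 3 NADH dehydrogenase genes, 4 genes of complex II, 9 of complex III, 8 of complex IV and 12 of the ATP synthase. Some subunit genes, such as COX5A, COX5B, TIM11 and ATP19, are not in the set. All 36 were found and all passed the filter on low counts. Messenger RNA was sequenced in 27 libraries, 3 for each of 9 groups, which combine 3 strains with glucose, galactose or ethanol with glycerol as the carbon source. BY4741 is a laboratory strain with the alleles his3Δ1, leu2Δ0, met15Δ0 and ura3Δ0, which the other strains share. In LCY001 the strain holds a CEN plasmid with HIS3. The CEN plasmid of LCY002 has HIS3 and, in 1 array, 40 genes that act in glycolysis, in ergosterol synthesis and in the use of galactose, and none of the 36 genes is among them. Per the labels, single colonies gave the replicates, overnight cultures in medium without histidine were diluted to an OD600 of 0.1 per ml, and cells were taken at an OD600 of about 1.0. The sources used here do not give the histidine content of the last cultures, nor whether each strain stems from 1 transformant. BY4741 is his3Δ1 without a plasmid and so needs histidine from the medium, which leaves unclear how the stated overnight medium applied to it. If the plasmid strains were given no histidine, that difference in medium cannot be told apart from the plasmid.

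Yeast makes ATP by respiration when electrons from NADH and succinate pass through the inner mitochondrial membrane to oxygen and the protons moved on the way drive the ATP synthase. Baker's yeast lacks the large proton-pumping complex I and uses single-subunit NADH dehydrogenases instead, NDI1 facing the matrix and NDE1 and NDE2 facing the intermembrane space. Most subunits of the complexes are encoded in the nucleus, where glucose represses their genes and the HAP complex, which binds CCAAT sequences and whose activating subunit is HAP4, activates them. Galactose represses them less, and ethanol and glycerol can be used only by respiration.

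The HAP complex is known to bind a sequence written TNATTGGT, with N for any base, and the 500 bases upstream of each start codon were searched for it on both strands, in the RefSeq sequence of build R64. It was found upstream of 16 of the 36 genes (44.4%) and of 512 of all 5978 genes with such a sequence (8.57%). The shorter CCAAT was found for 32 of the 36 (88.9%) and for 62.5% of all. Each TNATTGGT, read on the other strand, contains a CCAAT, so both searches overlap. By complex the longer motif lay upstream of 2 of 3 NADH dehydrogenase genes, 1 of 4 complex II genes, 3 of 9 complex III genes, 4 of 8 complex IV genes and 6 of 12 ATP synthase genes. Stretches of 30 bases around it are shown for 6 of the 16 genes, at least 1 of each complex, and COX6 because its match lies on the strand of the gene, with the motif in capitals. All are read 5′ to 3′ on the strand of the gene, and the match lies on the same strand in COX6 and on the other strand in the rest, where its complement is shown.
NDI1: tattcattcggACCAATCAtatgaaggcat
SDH1: ggcgggggtggACCAATCAcagcgcagaac
QCR7: atcttgttttgACCAATCAggagcgacgcg
COX8: aaacggtttgcACCAATCAtacgagagaag
COX6: gaaaagggaccTAATTGGTccggtcaaagc
ATP17: ttacggagagaACCAATCAtatcgaaggat
In build R64 these stretches are chrXIII:30017-30046 on the minus strand for NDI1, chrXI:171429-171458 on the minus strand for SDH1, chrIV:1496712-1496741 on the minus strand for QCR7, chrXII:910149-910178 on the minus strand for COX8, chrVIII:209477-209506 on the plus strand for COX6 and chrIV:1228370-1228399 on the plus strand for ATP17. The motif began 228 bases before the start codon of NDI1, 318 before that of SDH1, 182 before QCR7, 202 before COX8, 217 before COX6 and 230 before ATP17. The 16 genes with the motif had a median log2 fold change of 2.46 between ethanol/glycerol and glucose in BY4741, and the 20 without it one of 2.61. ATP1, ATP2, QCR8 and NDE2 are among the 20, which says only that these letters are not in this window.

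Levels are given as CPM, the expected counts of a library scaled to a common total with TMM factors. Library totals ran from 14484847 to 16219263 expected counts, and 0.207 CPM stands for 3 counts in the library with the lowest total, a floor that covers counting error only. HIS3, which checks the labels, stood at 26.0 to 48.7 CPM in the 9 BY4741 libraries and at 432 CPM or more in all libraries of both plasmid strains. LCY001 galactose replicate 2 and BY4741 ethanol/glycerol replicate 3 stood most apart from their replicates, and what leaving them out changes is given beside the results. Differences were tested with the quasi-likelihood test of edgeR across 5692 genes, and a gene is called higher or lower where the Benjamini-Hochberg adjusted p is below 0.05. The RNA is from whole cultures, so fewer cells with a transcript and less of it per cell cannot be told apart. QCR10 is uncertain, since its expected counts were not whole in 25 of 27 libraries as happens where reads are shared between transcripts. RIP1 and QCR9 lie within reach of a transcript added by the submitters, and COX26 had as few as 5 counts in a library.

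The first comparison asked how the 36 transcripts followed the carbon source in BY4741. Every one of them was higher on galactose than on glucose and higher again on ethanol/glycerol than on glucose. Together they took 0.405% ± 0.0111 (SD, n = 3) of all counts on glucose, 1.48% ± 0.0178 on galactose and 2.52% ± 0.0768 on ethanol/glycerol. Complex II went from 0.0250% of counts on glucose to 0.131% on galactose and 0.347% on ethanol/glycerol. From galactose to ethanol/glycerol 34 of the 36 rose further, and NDE1 and COX26 did not pass the test. For 34 genes the 9 libraries fell into 3 groups that do not overlap, in the order glucose, galactose, ethanol/glycerol. The share of all tested genes with this order is not given here, so the count of 34 has no background.

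Galactose against glucose gave 36 of 36 genes higher, where 33.9% of all tested genes were called higher and 31.7% lower. The median log2 fold change of the 36 was 1.75, and that of all tested genes 0.01. Ethanol/glycerol against glucose gave 36 of 36 with a median of 2.48, beside 43.7% of all genes higher and 37.7% lower and an overall median of 0.05. Ethanol/glycerol against galactose gave 34 higher and 0 lower with a median of 0.70, beside 37.2% of all genes higher. The order of the complexes was complex II, complex III, complex IV and ATP synthase in all 3 comparisons, with medians of 3.61, 2.72, 2.54 and 2.16 between ethanol/glycerol and glucose. The NADH dehydrogenases had a median of 3.01 there. Over all tested genes the median lay between -0.02 and 0.05 in each of the 22 comparisons made here. Genes of ribosome biogenesis and of the stress response moved with the carbon source too. All 21 listed ribosome biogenesis genes were lower on ethanol/glycerol than on glucose, their summed level being 10890 to 11840 CPM on glucose and 5398 to 6790 CPM on ethanol/glycerol. Of 24 stress and reserve carbohydrate genes 16 were higher and 3 lower, with sums of 4129 to 4532 and of 8166 to 9567 CPM. Their part in the results on the 36 genes was not tested.

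**Figure D1:**
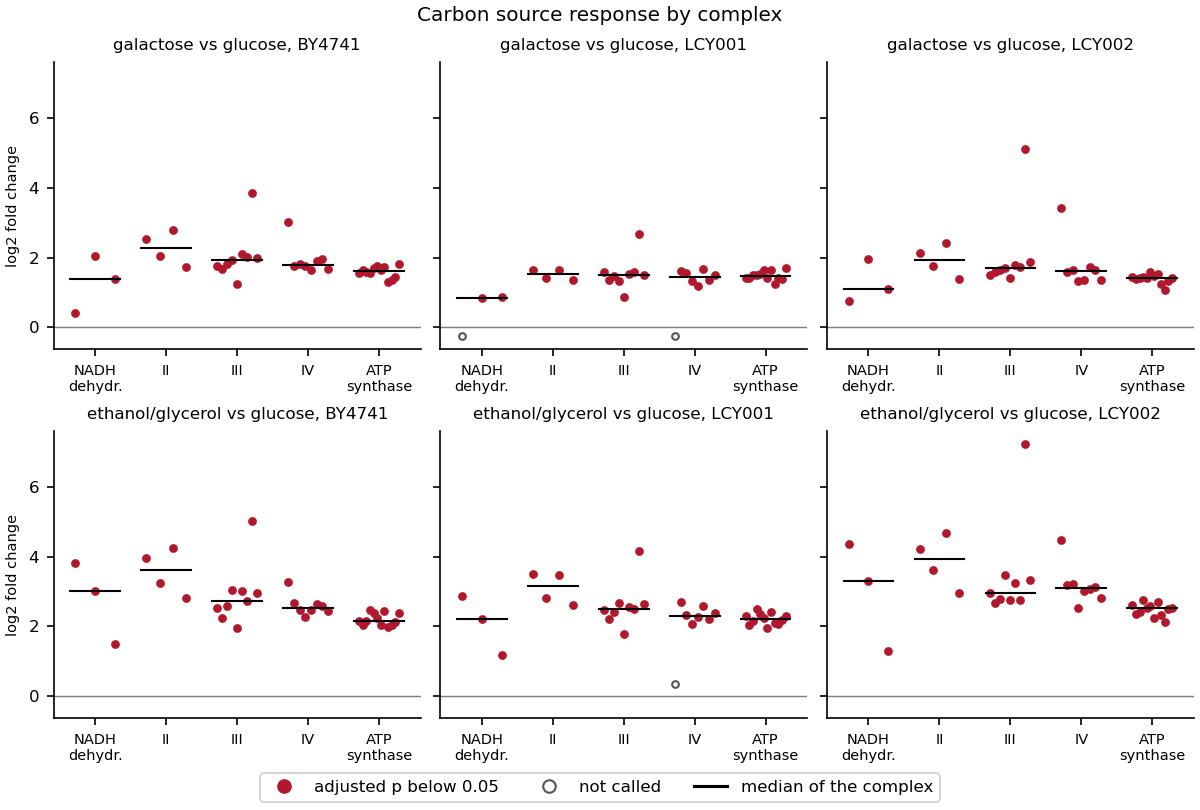
Log2 fold change of each of the 36 genes between galactose or ethanol/glycerol and glucose (y axis), by complex (x axis) and strain (panels). Red points passed the test, open grey points did not, and black bars are medians of a complex. In BY4741 the medians on ethanol/glycerol run from 3.61 for complex II to 2.16 for the ATP synthase.

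The NADH dehydrogenases, which take the place of complex I, followed 3 different courses. NDI1, the enzyme of the matrix side, stood at 88.7, 96.0 and 96.0 CPM in the 3 glucose libraries, at 392, 388 and 376 on galactose and at 763, 768 and 738 on ethanol/glycerol. It rose in both steps without overlap, by 2.04 ± 0.09 (log2, ± SE) from glucose to galactose (adjusted p = 6.26e-16) and by 0.97 ± 0.08 from galactose to ethanol/glycerol (adjusted p = 1.6e-10). NDE1, the main enzyme of the outer side, stood at 311, 310.5 and 308 CPM on glucose, 806, 801 and 839 on galactose and 874, 817 and 915 on ethanol/glycerol. Its rise of 1.40 ± 0.05 came with galactose, and the libraries of galactose and ethanol/glycerol overlap (log2 fold change 0.09 ± 0.05, adjusted p = 0.111). NDE2, the lesser enzyme of the outer side, stood at 6.90, 6.99 and 7.03 CPM on glucose, 10.6, 7.95 and 9.52 on galactose and 113, 89.5 and 96.1 on ethanol/glycerol. It did the reverse of NDE1, with a rise of 0.43 ± 0.15 on galactose (adjusted p = 0.0188) and one of 3.41 ± 0.11 from galactose to ethanol/glycerol (adjusted p = 8.42e-19). The small rise of NDE2 on galactose was not called without BY4741 galactose replicate 1 (0.32, adjusted p = 0.107). NDE1 passed the test between ethanol/glycerol and galactose without BY4741 ethanol/glycerol replicate 2, and with total counts as the scale.

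Complex II is succinate dehydrogenase, which also works in the citric acid cycle. SDH1, its catalytic flavoprotein, stood at 52.5, 57.1 and 60.2 CPM on glucose, 377, 412 and 396 on galactose and 1121, 1099 and 1011 on ethanol/glycerol, with no overlap. It rose 6.98 fold on galactose and 19.0 fold on ethanol/glycerol over glucose (log2 2.80 ± 0.08, adjusted p = 2.28e-21, and 4.25 ± 0.08, adjusted p = 1.82e-25). SDH2, the iron-sulfur subunit, stood at 65.9, 73.5 and 66.3 CPM on glucose, 383, 427 and 373 on galactose and 1086, 1104 and 1011 on ethanol/glycerol, likewise in 3 separate groups. Its log2 fold change over glucose was 2.52 ± 0.08 on galactose and 3.96 ± 0.08 on ethanol/glycerol. The membrane subunits rose less. SDH3 stood at 102, 104 and 102 CPM on glucose, 326, 354 and 331 on galactose and 726, 757 and 701 on ethanol/glycerol, a log2 fold change of 2.83 ± 0.07 for the last against the first (adjusted p = 1.3e-23). SDH4, the other anchor, rose by 3.26 ± 0.06 over the same step.

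Complex III passes electrons from ubiquinol to cytochrome c. Its redox subunits CYT1, which is cytochrome c1, and RIP1, the Rieske iron-sulfur protein, rose by 3.01 ± 0.07 and 2.96 ± 0.06 on the log2 scale from glucose to ethanol/glycerol. CYT1 stood at 92.0, 101 and 96.5 CPM on glucose, 386, 415 and 438 on galactose and 807, 779.5 and 742 on ethanol/glycerol. The core subunits COR1 and QCR2 rose by 2.58 ± 0.04 and 2.72 ± 0.05. Of the small subunits QCR7 stood at 226, 236 and 236 CPM on glucose, 746, 749 and 749.6 on galactose and 1125, 1085 and 1070 on ethanol/glycerol. It had the smallest rise of the complex from galactose to ethanol/glycerol, 0.55 ± 0.04 (adjusted p = 5.09e-12). QCR8, another small subunit, stood at 21.3, 23.0 and 23.1 CPM on glucose, 50.2, 54.0 and 55.8 on galactose and 79.8, 88.7 and 91.1 on ethanol/glycerol, with the smallest rise of the complex over glucose, 1.94 ± 0.08 (adjusted p = 4.82e-18). In QCR7 and QCR8 alike no library of one carbon source reached those of the next. QCR10, the small subunit with uncertain counts, stood at 7.70, 8.17 and 9.22 CPM on glucose, 116, 127 and 125 on galactose and 279, 278 and 264 on ethanol/glycerol. Its fitted rise over glucose, 5.03 ± 0.21, was the largest of all 36.

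Complex IV, cytochrome c oxidase, has its catalytic core encoded in mitochondrial DNA, whose genes were not analysed here, and the nuclear genes supply its small subunits. COX12 stood at 18.5, 16.7 and 15.7 CPM on glucose, 51.3, 59.2 and 61.4 on galactose and 114, 108 and 101 on ethanol/glycerol. It had the largest rise of the complex from galactose to ethanol/glycerol, 0.91 ± 0.07 (adjusted p = 2.24e-11). COX13, a peripheral subunit, stood at 83.9, 87.5 and 83.8 CPM on glucose, 244, 267 and 284 on galactose and 465, 482 and 478 on ethanol/glycerol. It had the smallest rise on galactose, 1.64 ± 0.05 (adjusted p = 1.61e-19), and went on to 2.48 ± 0.05 on ethanol/glycerol. COX9 stood at 9.30, 11.9 and 10.4 CPM on glucose, 31.1, 40.2 and 37.2 on galactose and 51.8, 51.4 and 49.2 on ethanol/glycerol, and rose least of the complex over glucose on the last, by 2.26 ± 0.09 (adjusted p = 3.56e-18). In these 3 genes the carbon sources do not overlap. COX26, a small subunit that sits in supercomplexes with complex III, stood at 1.09, 0.908 and 0.903 CPM on glucose, 7.56, 8.59 and 7.64 on galactose and 10.4, 12.1 and 5.68 on ethanol/glycerol. It rose from glucose to galactose by 3.03 ± 0.30 (adjusted p = 3.04e-09), the largest rise of the complex, while galactose and ethanol/glycerol overlap (0.25 ± 0.20, adjusted p = 0.257). BY4741 ethanol/glycerol replicate 3 is the low library there, and without it the gene was called higher on ethanol/glycerol than on galactose.

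The ATP synthase makes ATP in a catalytic head joined to a membrane rotor by a central stalk and held by a peripheral one. ATP2, its catalytic beta subunit, stood at 857, 854 and 842 CPM on glucose, 2656, 2650 and 2761 on galactose and 3618, 3522 and 3410 on ethanol/glycerol. It rose by 1.66 ± 0.05 with galactose and least of the complex, by 0.39 ± 0.04, from there to ethanol/glycerol (adjusted p = 1.37e-08). ATP1, the alpha subunit, rose by 2.39 ± 0.05 from glucose to ethanol/glycerol, and the central stalk genes ATP3, ATP16 and ATP15 by 2.23 ± 0.04, 2.06 ± 0.05 and 2.06 ± 0.13. Among the peripheral stalk genes the rises were 2.14 ± 0.05 for ATP4, 2.17 ± 0.05 for ATP5, 2.43 ± 0.05 for ATP7 and 2.15 ± 0.06 for ATP14. Of the small membrane subunits ATP17 stood at 13.9, 13.6 and 13.4 CPM on glucose, 38.4, 44.6 and 38.2 on galactose and 71.2, 73.9 and 81.7 on ethanol/glycerol, with the largest rise of the complex, 2.47 ± 0.09 (adjusted p = 1.67e-19). ATP18 stood at 29.3, 29.1 and 25.7 CPM on glucose, 50.2, 84.2 and 72.1 on galactose and 109.5, 104 and 116 on ethanol/glycerol, with the smallest, 1.97 ± 0.14 (adjusted p = 5.1e-11). ATP20, which is needed for dimers of the enzyme, stood at 33.7, 31.6 and 30.4 CPM on glucose, 101, 120.5 and 117 on galactose and 166, 166 and 169 on ethanol/glycerol and had the largest rise on galactose, 1.83 ± 0.06. The 3 carbon sources are apart in each of these genes. The 12 subunit genes of the set kept close together, the SD of their log2 fold changes between ethanol/glycerol and glucose being 0.172 in BY4741, 0.165 in LCY001 and 0.186 in LCY002. For the 9 genes of complex III it was 0.879, 0.644 and 1.44, and without the uncertain QCR10, left out after the values were seen, 0.39, 0.294 and 0.311. Closeness was not particular to the ATP synthase in BY4741. Apart from COX26, at low counts and 3.28, the complex IV genes ran from 2.26 for COX9 to 2.67 for COX12.

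Levels of different genes can be compared per length only, and for this the deposited FPKM values (fragments scaled by gene length and library size) were used. The median FPKM of the 36 genes in BY4741 was 161 on glucose, 611 on galactose and 1063 on ethanol/glycerol, beside 53.9, 60.7 and 65.9 over all tested genes. For 99.3% of the genes checked the deposited length equalled the coding length, so untranslated ends were left out of it. How far this shifts the FPKM of short genes was not tested. Subunits of 1 complex were not at 1 level by this measure. On ethanol/glycerol complex III ran from 463 FPKM for RIP1 to 4453 for QCR7, complex IV from 112 for COX26 to 2481 for COX8, and the ATP synthase from 433 for ATP17 to 2667 for ATP2. The lowest and highest genes of these complexes were the same on glucose, from 52.0 to 829 FPKM, from 10.0 to 387 FPKM and from 68.5 to 565 FPKM. The FPKM of NDI1 was 0.332 ± 0.0159 (SD, n = 3) of that of NDE1 on glucose, 0.520 ± 0.0239 on galactose and 0.960 ± 0.0733 on ethanol/glycerol, with no overlap between the media. NDE2 was at 0.0232 ± 0.000305 of the level of NDE1 on glucose, 0.0118 ± 0.00169 on galactose and 0.118 ± 0.0133 on ethanol/glycerol. ATP1 was at 0.619 ± 0.0146 of the level of its partner ATP2 on glucose, 0.640 ± 0.00428 on galactose and 0.788 ± 0.0254 on ethanol/glycerol. COR1 and QCR2, the core pair of complex III, stayed near 1 to 1 in FPKM, at ratios of 1.10 ± 0.0606, 0.951 ± 0.0128 and 0.995 ± 0.0105.

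**Figure D2:**
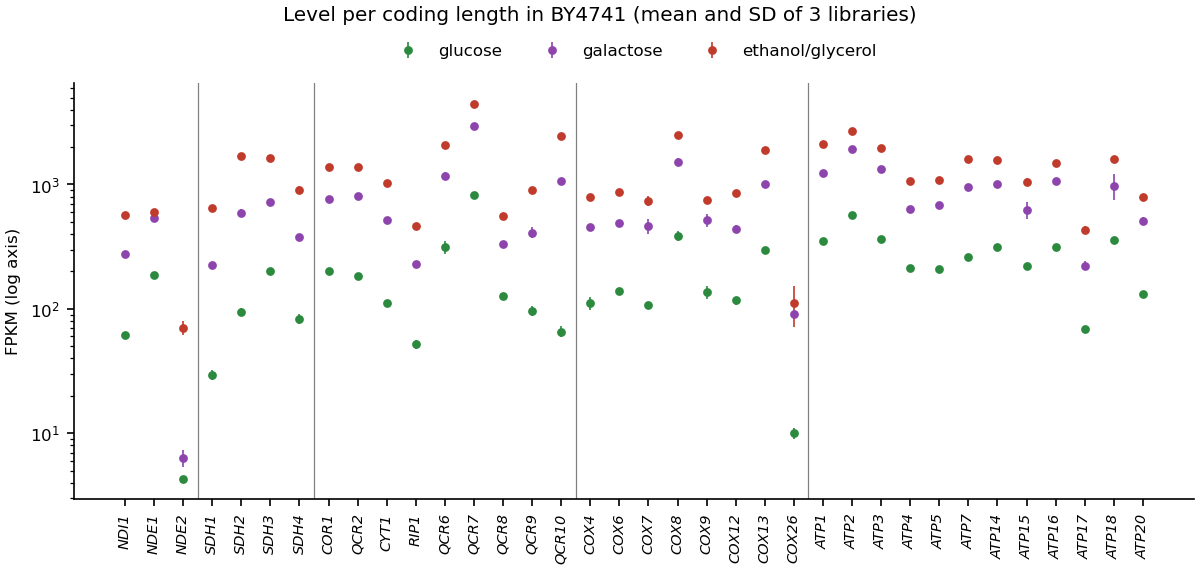
Deposited FPKM (y axis, log scale) of each of the 36 genes (x axis, grouped by complex) in BY4741, as the mean and SD of 3 libraries for each carbon source. On ethanol/glycerol the genes run from 70.4 FPKM for NDE2 to 4453 for QCR7.

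The plasmid strains showed the same order of media. In LCY001 galactose against glucose gave 34 of 36 genes higher (31.1% of all genes), ethanol/glycerol against glucose 35 (40.2%) and ethanol/glycerol against galactose 36 (35.3%), with medians of 1.44, 2.36 and 0.89. Called lower were 0 in each, beside 28.3%, 37.9% and 36.3% of all genes. In LCY002 all 36 were higher in all 3 comparisons, beside 33.7%, 43.2% and 36.6% of all genes, with medians of 1.52, 2.80 and 1.32, and 26.4%, 40.4% and 40.4% of all genes were lower. Called higher in each of the 3 strains were 34 genes for galactose against glucose, 35 for ethanol/glycerol against glucose and 34 for ethanol/glycerol against galactose. These joint counts are not given here for all tested genes. The exceptions in LCY001 were COX26, at -0.24 ± 0.26 on galactose (adjusted p = 0.433) and 0.35 ± 0.24 on ethanol/glycerol (adjusted p = 0.177), and NDE2, at -0.25 ± 0.13 on galactose (adjusted p = 0.0934). On glucose both genes had their highest mean of the 3 strains in LCY001. COX26 stood at 4.53, 3.67 and 3.88 CPM there, 2.94, 4.51 and 2.80 on galactose and 4.86, 5.06 and 5.54 on ethanol/glycerol, so the libraries on galactose and glucose overlap. NDE2 in LCY001 was called lower on galactose than on glucose by DESeq2 and without LCY001 glucose replicate 3, and COX26 was called higher on ethanol/glycerol when only the libraries compared were fitted. The call of COX26 between ethanol/glycerol and galactose in LCY001, 0.59 ± 0.24, ended without ethanol/glycerol replicate 2 or 3 or galactose replicate 1 or 3 (0.47 to 0.61, adjusted p = 0.0555 to 0.129). Of the count totals the 36 genes took 0.467% ± 0.0170, 1.36% ± 0.0611 and 2.48% ± 0.0121 on glucose, galactose and ethanol/glycerol in LCY001. In LCY002 they took 0.347% ± 0.00555, 1.05% ± 0.0336 and 2.53% ± 0.0608.

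**Figure D3:**
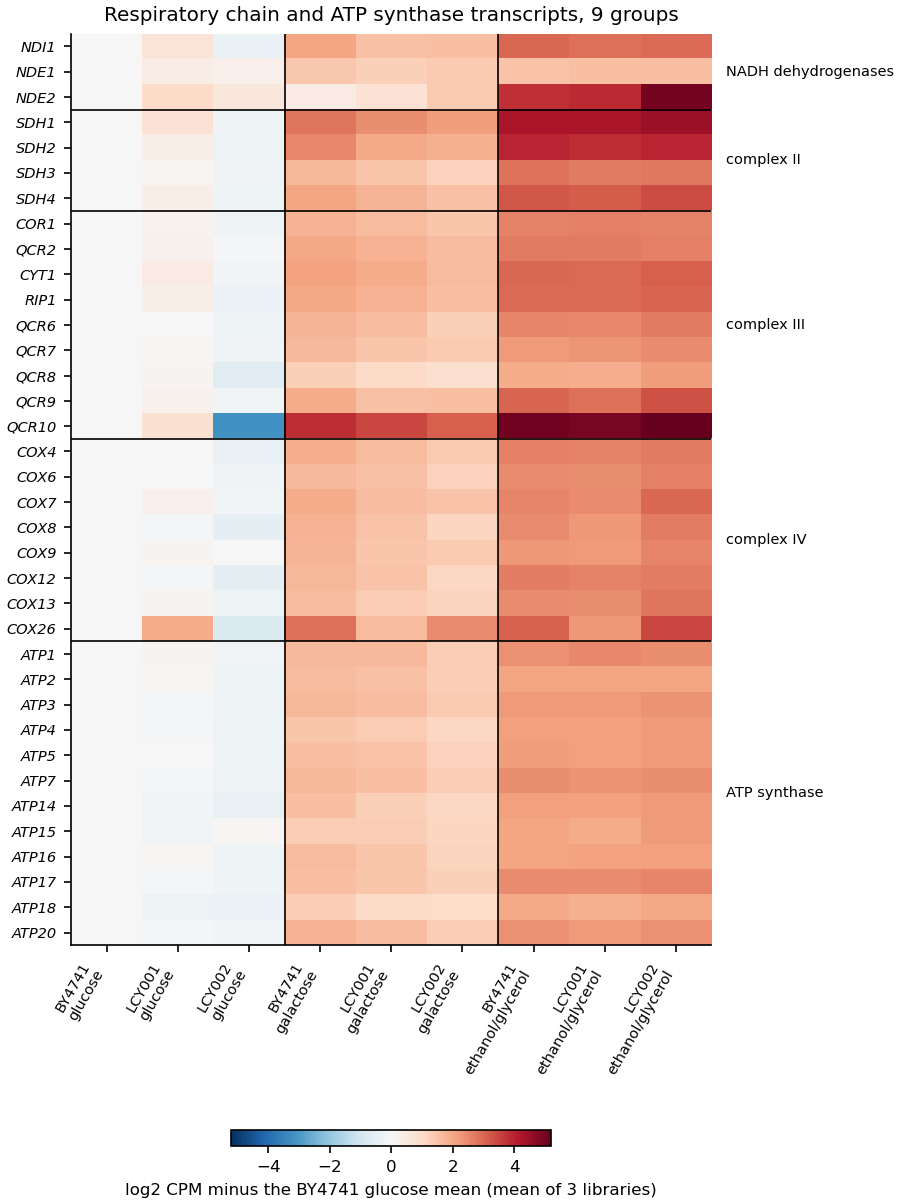
Mean log2 CPM of each of the 36 genes (rows, by complex) in the 9 groups of 3 libraries (columns), minus the mean in BY4741 on glucose. The shade deepens from glucose through galactose to ethanol/glycerol in nearly all rows, and COX26 and NDE2 in LCY001 depart from this between glucose and galactose.

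Genes that work with the complexes mostly moved the same way. Among 12 mitochondrial carriers and electron carriers or their isoforms 9 were higher and 2 lower on ethanol/glycerol than on glucose in BY4741. CYC1, the main cytochrome c, rose from 24.2 ± 1.63 CPM (mean ± SD, n = 3) on glucose to 126 ± 10.7 on galactose and 210.1 ± 12.9 on ethanol/glycerol, and GUT2, the glycerol-3-phosphate dehydrogenase that feeds ubiquinone, rose by 3.81 ± 0.08. COX5A, the aerobic form of a complex IV subunit, rose by 2.87 ± 0.04 (adjusted p = 2.41e-27), from 86.0 ± 1.17 to 630.4 ± 9.57 CPM. Its hypoxic form COX5B fell by 2.11 on the log2 scale, from 66.0 ± 5.08 to 15.3 ± 1.79 CPM. AAC3, the hypoxic ADP/ATP carrier, also fell, by 3.07, while PET9, the main one, rose by 2.45 ± 0.05. The lists of assembly factors also hold paralogs, inhibitors and small subunits. In them 7 of 7 genes of complex II assembly and paralogs were higher (median 1.21), 8 of 8 of complex III assembly (0.63), 22 of 23 of complex IV assembly (0.71) and 11 of 11 of ATP synthase assembly and regulation (0.95). The genes of the last list that rose most were INH1 and STF1, inhibitors of ATP hydrolysis by the enzyme, at 3.34 ± 0.13 and 3.03 ± 0.13, and the subunit gene TIM11 at 2.196 ± 0.07. SDH9, a paralog of SDH1, rose by 3.54 ± 0.11, most of it between galactose and ethanol/glycerol (3.09 ± 0.10). The lists share the background shares given above, 43.7% higher and 37.7% lower.

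Regulators of these genes were measured too. HAP4, the activating subunit of the HAP complex, stood at 361, 369 and 398 CPM on glucose in BY4741, at 603, 671 and 619.9 on galactose and at 755, 619.7 and 689 on ethanol/glycerol. It rose by 0.75 ± 0.14 and 0.87 ± 0.14 over glucose (adjusted p = 0.00011 and 1.11e-05), and the libraries of galactose and ethanol/glycerol overlap. In LCY001 it changed by -1.07 ± 0.14 from glucose to galactose (log2, adjusted p = 2.32e-06), while 34 of the 36 genes rose. The DNA-binding subunits HAP2, HAP3 and HAP5 rose by 0.65 ± 0.07, 0.84 ± 0.08 and 0.44 ± 0.08 on ethanol/glycerol. HAP1, the heme-responsive activator, fell by 0.54 on the log2 scale from glucose to ethanol/glycerol, from 327 ± 8.28 to 226 ± 8.51 CPM, and was higher on galactose at 368 ± 8.38 CPM.

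The next comparisons set the plasmid strains beside BY4741 and beside each other, on each carbon source. In plasmid content LCY001 differs from BY4741 by the HIS3 plasmid, and LCY002 from LCY001 by the array. The LCY001 libraries stand in both comparisons and the BY4741 libraries in 2 of the 3, so their results are not independent of each other. The level of HIS3 also differed between the plasmid strains. On glucose it was 1470 to 1522 CPM in LCY001 and 495 to 529 CPM in LCY002. On galactose it was 1052 to 1254 and 432 to 449 CPM, and on ethanol/glycerol 999 to 1095 and 647 to 666 CPM. The part of this difference in the results below was not tested.

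On glucose 31 of the 36 transcripts were lower in LCY002 than in LCY001. Against BY4741 LCY001 was higher for 14 of the 36 genes and lower for 1, beside 27.6% and 27.8% of all tested genes, with a median log2 fold change of 0.11. The genes called higher were 3 of 3 NADH dehydrogenases, 3 of 4 genes of complex II, 5 of 9 of complex III, 2 of 8 of complex IV and 1 of 12 of the ATP synthase. LCY002 against LCY001 was lower for 31 and higher for 0, beside 25.3% and 28.5% of all genes, with a median of -0.31. Against BY4741 LCY002 was lower for 24 and higher for 2, beside 20.7% and 17.7%, with a median of -0.22. All 24 of the genes lower than in BY4741 were also lower than in LCY001, a joint count not given here for all genes. Leaving out single libraries gave 26 to 31 genes in place of the 31 and 19 to 23 in place of the 24.

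NDI1 and SDH1 were highest in LCY001 and lowest in LCY002. NDI1 stood at 165, 138 and 146 CPM in LCY001 and 67.1, 72.5 and 79.6 in LCY002, above and below the BY4741 libraries given earlier without overlap. It was 0.68 ± 0.09 higher in LCY001 than in BY4741 (log2, adjusted p = 7.33e-07) and changed by -1.03 ± 0.09 in LCY002 against LCY001 (adjusted p = 1.06e-09) and -0.36 ± 0.09 against BY4741 (adjusted p = 0.00304). SDH1 stood at 105, 87.4 and 95.8 CPM in LCY001 and 47.4, 48.5 and 48.5 in LCY002, again in 3 separate groups. Its log2 fold changes were 0.76 ± 0.08 for LCY001 against BY4741 (adjusted p = 6.1e-09) and -0.996 ± 0.08 for LCY002 against LCY001 (adjusted p = 4.37e-11). Against BY4741 the change of SDH1 in LCY002, -0.23 ± 0.08, was not called without BY4741 replicate 2, BY4741 replicate 3 or LCY002 replicate 1 (adjusted p = 0.0506 to 0.103). CYT1 stood at 135, 119 and 134 CPM in LCY001 and 92.1, 82.1 and 89.3 in LCY002. It was higher in LCY001 than in BY4741 by 0.42 ± 0.06 and changed by -0.56 ± 0.06 in LCY002 against LCY001, whose libraries do not overlap, while LCY002 against BY4741 did not pass the test (-0.14 ± 0.07, adjusted p = 0.104) except with total counts as the scale. SDH2 changed by -0.63 ± 0.08 in LCY002 against LCY001, with 98.5, 79.4 and 87.3 CPM in LCY001 and 59.2, 52.1 and 59.6 in LCY002, all below those of LCY001.

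NDE2 and COX26 stood at low levels on glucose. NDE2 stood at 14.4, 16.3 and 11.6 CPM in LCY001 and 9.43, 9.93 and 13.1 in LCY002, all above BY4741. It was higher than in BY4741 by 1.02 ± 0.14 in LCY001 (adjusted p = 2.41e-06) and by 0.63 ± 0.15 in LCY002 (adjusted p = 0.00212), and the strains with plasmids overlap. NDE1 was the other gene that was higher in LCY002 than in BY4741 (0.26 ± 0.05, adjusted p = 0.000258). COX26 stood at 4.53, 3.67 and 3.88 CPM in LCY001 and 0.797, 0.354 and 0.507 in LCY002, and the LCY001 libraries lie above all others. Its log2 fold change was 2.05 ± 0.34 for LCY001 against BY4741 and -2.85 ± 0.39 for LCY002 against LCY001 (adjusted p = 1.61e-05 and 1.18e-06). QCR10 stood at 15.9, 13.0 and 15.2 CPM in LCY001 and at 1.16, 0.00 and 5.14 in LCY002, where 1 library had 0 counts, which allows up to 3 counts. The LCY002 libraries lie below all of BY4741 and LCY001, and the fitted change against LCY001, -2.81 ± 0.36, rests on uncertain counts and on the 0, and was -4.66 without LCY002 replicate 3. Against BY4741 it was -2.00 ± 0.41 (adjusted p = 0.000683), a call that ended when only the libraries compared were fitted (-1.98, adjusted p = 0.145). QCR10 in LCY001 against BY4741, 0.81 ± 0.27, was not called without BY4741 replicate 1 (0.76, adjusted p = 0.0503), without LCY001 replicate 1 (0.75, adjusted p = 0.0513) or by DESeq2.

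Some subunits were lower in LCY002 than in both other strains. QCR8 stood at 26.8, 22.9 and 24.3 CPM in LCY001 and 13.8, 14.3 and 16.8 in LCY002, against 21.3 or more in BY4741. Its log2 fold change in LCY002 was -0.72 ± 0.09 against LCY001 and -0.58 ± 0.10 against BY4741 (adjusted p = 4.81e-07 and 2.19e-05). COX8 stood at 46.1, 46.1 and 51.5 CPM in LCY001, from 32.4 to 36.6 CPM in LCY002 and at 47.3, 49.4 and 54.8 CPM in BY4741, and changed by -0.53 ± 0.07 in LCY002 against BY4741 (adjusted p = 1.53e-06). COX12 changed by -0.51 ± 0.11 in the same comparison, with 13.4, 10.4 and 11.9 CPM in LCY002 below the BY4741 libraries. COX4 did so by -0.39 ± 0.06, with 30.2, 31.0 and 33.3 CPM in LCY002 and 37.2, 40.3 and 45.9 in BY4741. For these 4 genes no LCY002 library reached a library of BY4741 or LCY001. In LCY001 against BY4741 the ATP synthase genes moved least. In LCY002 against BY4741 they were not set apart. ATP3 was at -0.24 ± 0.04 and ATP1 at -0.12 ± 0.05 there, beside COR1 at -0.22 ± 0.04 and QCR2 at -0.11 ± 0.05. ATP1 was 0.13 ± 0.05 higher in LCY001 than in BY4741 (adjusted p = 0.0192), against the median of its complex of -0.05, with 611, 594 and 649 CPM in LCY001 and 585, 557 and 554 in BY4741. ATP14 changed by -0.16 ± 0.06 (adjusted p = 0.0176). The call of ATP1 ended without BY4741 replicate 2, BY4741 replicate 3 or LCY001 replicate 3 (0.09 to 0.12), and that of ATP14 without BY4741 replicate 2, BY4741 replicate 3 or LCY001 replicate 2 (-0.16 to -0.13), which leaves 0 genes lower.

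On glucose the summed level of the stress genes and the level of HAP4 were higher in LCY001 than in both other strains. Of the 24 stress and reserve carbohydrate genes 22 were higher and 0 lower in LCY001 than in BY4741, with summed levels of 8578 to 9938 CPM in LCY001, 4129 to 4532 CPM in BY4741 and 3104 to 3456 CPM in LCY002. Against BY4741 LCY001 was lower for all 21 genes of ribosome biogenesis, with sums of 7866 to 8292 and 10890 to 11840 CPM, and 9965 to 10670 CPM in LCY002. HAP4 stood at 595, 559.8 and 617 CPM in LCY001 and 286, 358 and 348 in LCY002. It was 0.65 ± 0.14 higher in LCY001 than in BY4741 and changed by -0.83 ± 0.14 in LCY002 against LCY001 (adjusted p = 0.000624 and 5.65e-05), so its LCY001 libraries lie above all others. HAP4 did not pass the test between LCY002 and BY4741 (-0.18 ± 0.14, adjusted p = 0.333), while 24 of the 36 genes were lower. Stress genes went both ways in that comparison, with HSP26 at 1.40 ± 0.20 and CTT1 at -0.84 ± 0.18. Of the carriers and isoforms 7 of 12 were higher and 1 lower in LCY001 than in BY4741, CYC7, the hypoxic cytochrome c, among them (1.85 ± 0.14, 5.96 ± 1.24 to 21.5 ± 2.72 CPM), and of the complex IV assembly genes 11 of 23 were higher and 1 lower. The part of these genes in the result on the 36 was not tested.

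**Figure D4:**
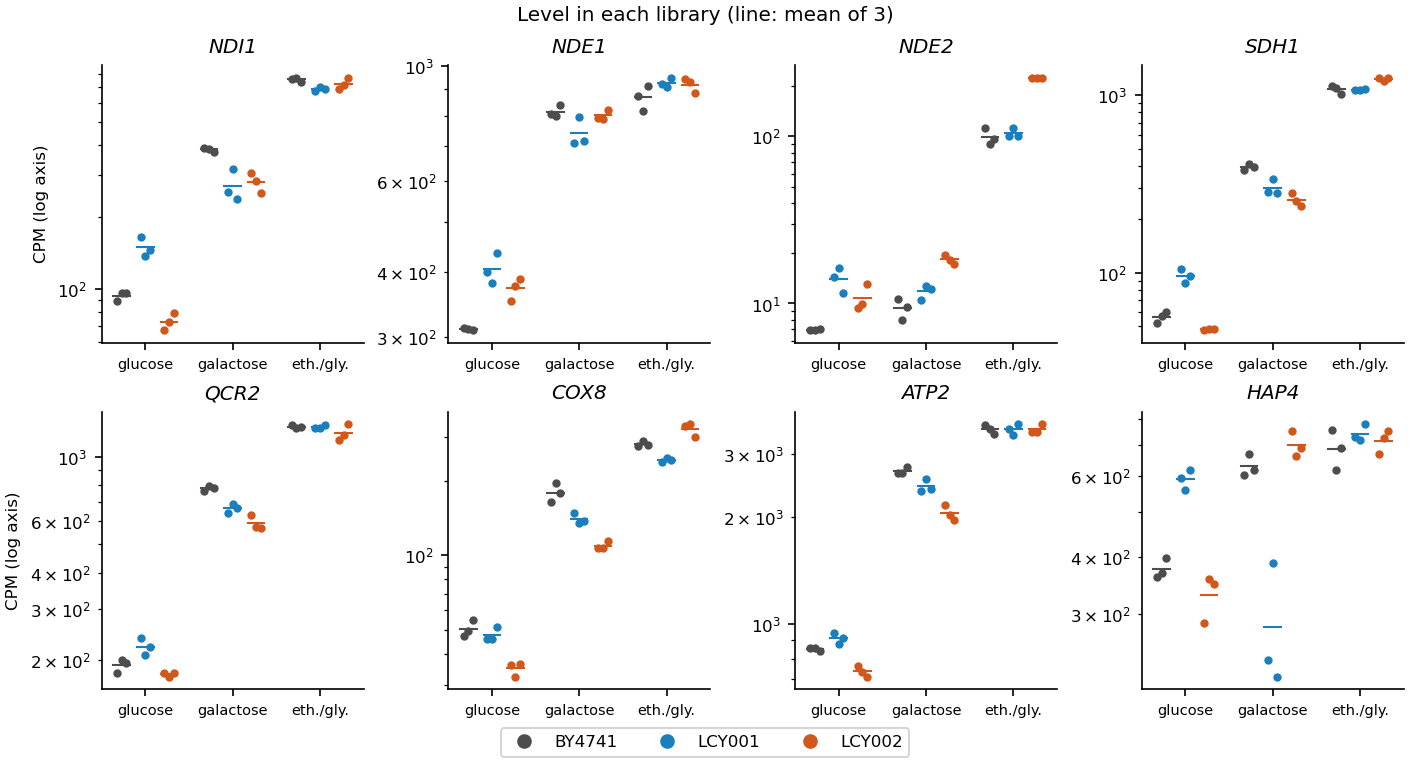
CPM (y axis, log scale, a scale of its own in each panel) of 7 of the 36 genes and of HAP4 in each of the 27 libraries, by carbon source (x axis) and strain (colour), with lines at the means of 3. On glucose the LCY001 libraries of NDI1, 138 to 165 CPM, lie above those of BY4741 and LCY002.

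On galactose LCY001 was lower than BY4741 for 27 of the 36 genes and higher for 0, beside 18.2% and 20.7% of all tested genes, with a median of -0.23. LCY002 was lower than LCY001 for 23 and higher for 2, beside 18.1% and 20.2%, with a median of -0.23. Against BY4741 LCY002 was lower for 31 and higher for 1, beside 18.0% and 19.8%, with a median of -0.44. In LCY002 23 genes were lower than in both other strains, a joint count not given here for all genes. All complexes took part, with medians for LCY002 against BY4741 of -0.58 for complex II, -0.41 for complex III, -0.49 for complex IV and -0.40 for the ATP synthase, while the NADH dehydrogenases had -0.02.

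The steps down can be seen in COX8, which stood at 164, 195 and 179 CPM in BY4741, 148, 136 and 137 in LCY001 and 107, 107 and 114 in LCY002. These 3 groups do not overlap, and the log2 fold changes were -0.35 ± 0.06 for LCY001 against BY4741 and -0.36 ± 0.06 for LCY002 against LCY001 (adjusted p = 3.87e-05 and 4e-05). COX12 stood at 42.5, 53.1 and 49.7 CPM in LCY001 and 37.0, 35.7 and 35.2 in LCY002, the latter below all other libraries, and changed by -0.43 ± 0.08 in LCY002 against LCY001 (adjusted p = 0.000123). COX6, another small subunit of complex IV, stood at 153, 154 and 159 CPM in BY4741, 132, 153 and 136 in LCY001 and 116, 107 and 107 in LCY002. LCY002 lies below both other strains, with a change of -0.35 ± 0.05 against LCY001 (adjusted p = 6.92e-07). ATP1 stood at 1817, 1833 and 1887 CPM in BY4741, 1730, 1906 and 1768 in LCY001 and 1476, 1337 and 1338 in LCY002. BY4741 and LCY001 overlap for ATP1, and LCY002 lies below both, by -0.38 ± 0.05 against LCY001 (adjusted p = 1.82e-07).

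SDH1, SDH2 and NDI1, which were high in LCY001 on glucose, were lower there on galactose than in BY4741. SDH1 stood at 285, 339.6 and 281 CPM in LCY001 and 279.8, 253 and 238 in LCY002, and all 6 lie below the BY4741 libraries. Its changes against BY4741 were -0.39 ± 0.07 in LCY001 and -0.62 ± 0.07 in LCY002 (adjusted p = 5.57e-05 and 3.46e-08). SDH2 stood at 263, 298 and 260.3 CPM in LCY001 and 268, 253 and 229.8 in LCY002, with changes of -0.53 ± 0.07 and -0.66 ± 0.07 against BY4741 and likewise no overlap with it. NDI1 stood at 256, 318 and 238 CPM in LCY001 and 307, 284 and 254 in LCY002, both below BY4741, with a change of -0.51 ± 0.08 in LCY001 (adjusted p = 3.1e-05). QCR9, a small subunit of complex III that is uncertain, changed by -0.38 ± 0.10 in LCY001 against BY4741, and its libraries stood at 32.5, 39.9 and 34.6 CPM in BY4741 and 25.7, 31.7 and 24.7 in LCY001. QCR10 stood at 74.2, 74.9 and 68.2 CPM in LCY002, below the BY4741 libraries, and changed by -0.76 ± 0.16 (adjusted p = 0.000773), a call that ended with DESeq2.

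NDE2 and COX26 followed other orders. NDE2 stood at 10.5, 12.8 and 12.2 CPM in LCY001 and 19.5, 18.3 and 17.3 in LCY002, and the LCY002 libraries lie above all others. It was higher in LCY002 by 0.63 ± 0.12 than in LCY001 and by 0.97 ± 0.13 than in BY4741 (adjusted p = 0.000281 and 1.73e-06). COX26 stood at 2.94, 4.51 and 2.80 CPM in LCY001 and 6.78, 6.51 and 4.83 in LCY002. LCY001 was the low group, at -1.22 ± 0.23 against BY4741 (adjusted p = 0.000155), and LCY002 was 0.82 ± 0.24 higher than LCY001 (adjusted p = 0.00827), against the median of its complex, with no overlap between LCY001 and either strain.

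LCY001 galactose replicate 2 is the library nearest to BY4741 in NDI1, SDH1 and HAP4. Without it 4 genes were higher in LCY002 than in LCY001, NDI1 and NDE1 being the added ones, and the call of SDH1 between these strains ended (-0.14, adjusted p = 0.0959). Without LCY001 replicate 1 or BY4741 replicate 1 NDE2 was called higher in LCY001 than in BY4741, as it was by DESeq2 and with total counts as the scale, so the 0 above became 1. Leaving out single libraries also ended calls between LCY001 and BY4741 for CYT1, NDE1, COX6, COX7, COX12, COR1, ATP2 and ATP7, all of which were between -0.32 and -0.14. The replicate block ended the call of CYT1. The stress genes moved with the LCY001 libraries here too, 18 of 24 being lower and 0 higher than in BY4741. Their sums were 8402 to 8471 CPM in BY4741, 3446 to 4240 CPM in LCY001 and 5674 to 7370 CPM in LCY002. HAP4 stood at 239, 387 and 219 CPM in LCY001 and 752, 663 and 692 in LCY002. It was lower in LCY001 than in BY4741 (-1.16 ± 0.14, adjusted p = 2.64e-06) and higher in LCY002 than in LCY001 (1.32 ± 0.14, adjusted p = 3.96e-07), where 23 of the 36 genes were lower. HAP4 in LCY002 did not pass the test against BY4741 (0.15 ± 0.14, adjusted p = 0.421), while 31 of the 36 genes were lower. The part of the stress genes and of HAP4 in these results was not tested.

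On ethanol/glycerol fewer of the 36 genes were called between strains than on glucose or galactose. LCY001 was lower than BY4741 for 3 of the 36 genes and higher for 0, beside 4.92% and 6.59% of all tested genes, with a median of -0.04. LCY002 was higher than LCY001 for 16 and lower for 0, beside 29.4% and 30.4%, with a median of 0.15. Against BY4741 LCY002 was higher for 12 and lower for 0, beside 28.2% and 31.5%, with a median of 0.09. These 12 were also higher than in LCY001, a joint count not given here for all genes. The share of the 36 genes that was higher in LCY002 than in BY4741 is thus near that of all genes, and the share that was lower is below it. By complex 6 of 8 genes of complex IV, 5 of 9 of complex III, 2 of 4 of complex II, 1 of 3 NADH dehydrogenases and 2 of 12 ATP synthase genes were higher than in LCY001.

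NDE2 was higher in LCY002 than in both other strains. It stood at 113, 89.5 and 96.1 CPM in BY4741, 101, 112 and 100.5 in LCY001 and 224, 223 and 222 in LCY002. The LCY002 libraries lie well above the other 6, by 1.09 ± 0.08 against LCY001 and 1.16 ± 0.08 against BY4741 (adjusted p = 1.39e-10 and 2.47e-11). NDE2 was the 1 gene of the 36 that was higher in LCY002 than in BY4741 on all 3 carbon sources, and its FPKM on ethanol/glycerol was 0.250 ± 0.00707 (SD, n = 3) of that of NDE1 there, beside 0.116 ± 0.00932 in LCY001 and 0.118 ± 0.0133 in BY4741. NDI1 and NDE1, its relatives, did not pass the test against LCY001 (0.06 ± 0.08 and -0.01 ± 0.05, adjusted p = 0.514 and 0.878).

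In complex IV COX4 and COX12 did not pass the test between LCY002 and LCY001 (0.10 ± 0.05 and 0.08 ± 0.07, adjusted p = 0.0729 and 0.346), and the other genes were higher. COX7 stood at 46.8, 57.5 and 51.6 CPM in BY4741, 50.3, 49.1 and 46.6 in LCY001 and 66.3, 75.8 and 66.5 in LCY002. LCY002 is above both without overlap, by 0.51 ± 0.10 and 0.42 ± 0.10 (adjusted p = 7.42e-05 and 0.000601). COX13 stood at 450.0, 469.6 and 455 CPM in LCY001 and 585, 602 and 592 in LCY002, above all of BY4741 as well, with a log2 fold change of 0.37 ± 0.05 against LCY001 (adjusted p = 6.47e-07). COX8 stood at 277, 290.4 and 280.1 CPM in BY4741, 238, 247 and 243 in LCY001 and 333, 339 and 301 in LCY002. It was 0.42 ± 0.06 higher in LCY002 than in LCY001 (adjusted p = 8.55e-07), and LCY001 was the low group, -0.22 ± 0.06 against BY4741 (adjusted p = 0.0128). COX9 was 0.28 ± 0.08 higher in LCY002 than in BY4741 (adjusted p = 0.0023), with 57.6, 62.3 and 65.5 CPM above all 6 other libraries. COX26 stood at 4.86, 5.06 and 5.54 CPM in LCY001 and 10.1, 12.1 and 15.1 in LCY002, an increase of 1.26 ± 0.20 (adjusted p = 8.93e-06), and the LCY001 libraries lie below all others.

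In complex III, QCR9 and QCR8 were higher as well. QCR9, which is uncertain, stood at 65.6, 75.8 and 67.9 CPM in LCY001 and 93.4, 90.2 and 100.5 in LCY002, with log2 fold changes of 0.44 ± 0.08 against LCY001 and 0.30 ± 0.08 against BY4741. QCR8 stood at 84.4, 86.4 and 81.9 CPM in LCY001 and 93.1, 104 and 109 in LCY002, 0.24 ± 0.07 above BY4741 (adjusted p = 0.00423). In both genes the LCY002 libraries lie above those of the other strains. The ATP synthase subunits ATP1 and ATP2 did not pass the test between LCY002 and LCY001 (-0.09 ± 0.04 and -0.002 ± 0.04, adjusted p = 0.082 and 0.972). ATP20 was 1 of the 3 genes lower in LCY001 than in BY4741 (-0.18 ± 0.05, adjusted p = 0.0235), with 143, 153 and 146 CPM below 166, 166 and 169 CPM in BY4741, and it was 0.19 ± 0.05 higher in LCY002 than in LCY001. COX26 was the third, at -0.87 ± 0.21 (adjusted p = 0.00688).

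These 3 calls depended on single libraries. Without BY4741 ethanol/glycerol replicate 2 all of them ended (adjusted p = 0.0578 to 0.0712), without LCY001 replicate 1 COX26 was the one left (COX8 -0.21, ATP20 -0.16), and COX8 alone was left when only the libraries compared were fitted. The call of ATP20 also ended without BY4741 replicate 1 and without LCY001 replicate 3 (-0.19 and -0.18). Between LCY002 and BY4741 SDH1 (0.19 ± 0.07) and SDH4 (0.13 ± 0.05) lost their calls without BY4741 replicate 3 (0.15 and 0.09) and with total counts as the scale, which also ended that of COX8. The call of SDH4 ended without LCY002 replicate 2 or 3 as well (0.14 and 0.10). Without LCY002 replicate 3 QCR2 was called lower in LCY002 than in BY4741, which makes 1 in place of 0 (-0.13, adjusted p = 0.041). With total counts as the scale COR1 and ATP1 were called lower in LCY002 than in LCY001, and with DESeq2 ATP1 was. Of the growth state lists, 20 of 21 ribosome biogenesis genes were lower in LCY002 than in LCY001, with sums of 4332 to 4732 CPM beside 6092 to 7014 CPM, and 17 of 24 stress genes were higher and 1 lower. HAP4 did not pass the test there (-0.05 ± 0.14, adjusted p = 0.768), and COX5A was 0.37 ± 0.04 higher (adjusted p = 2.12e-08). Of 15 other glucose-repressed genes 12 were higher and 0 lower in LCY002 than in LCY001, with sums of 13750 to 14430 and 9642 to 9787 CPM. The part of the growth state in these results was not tested.

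**Figure D5:**
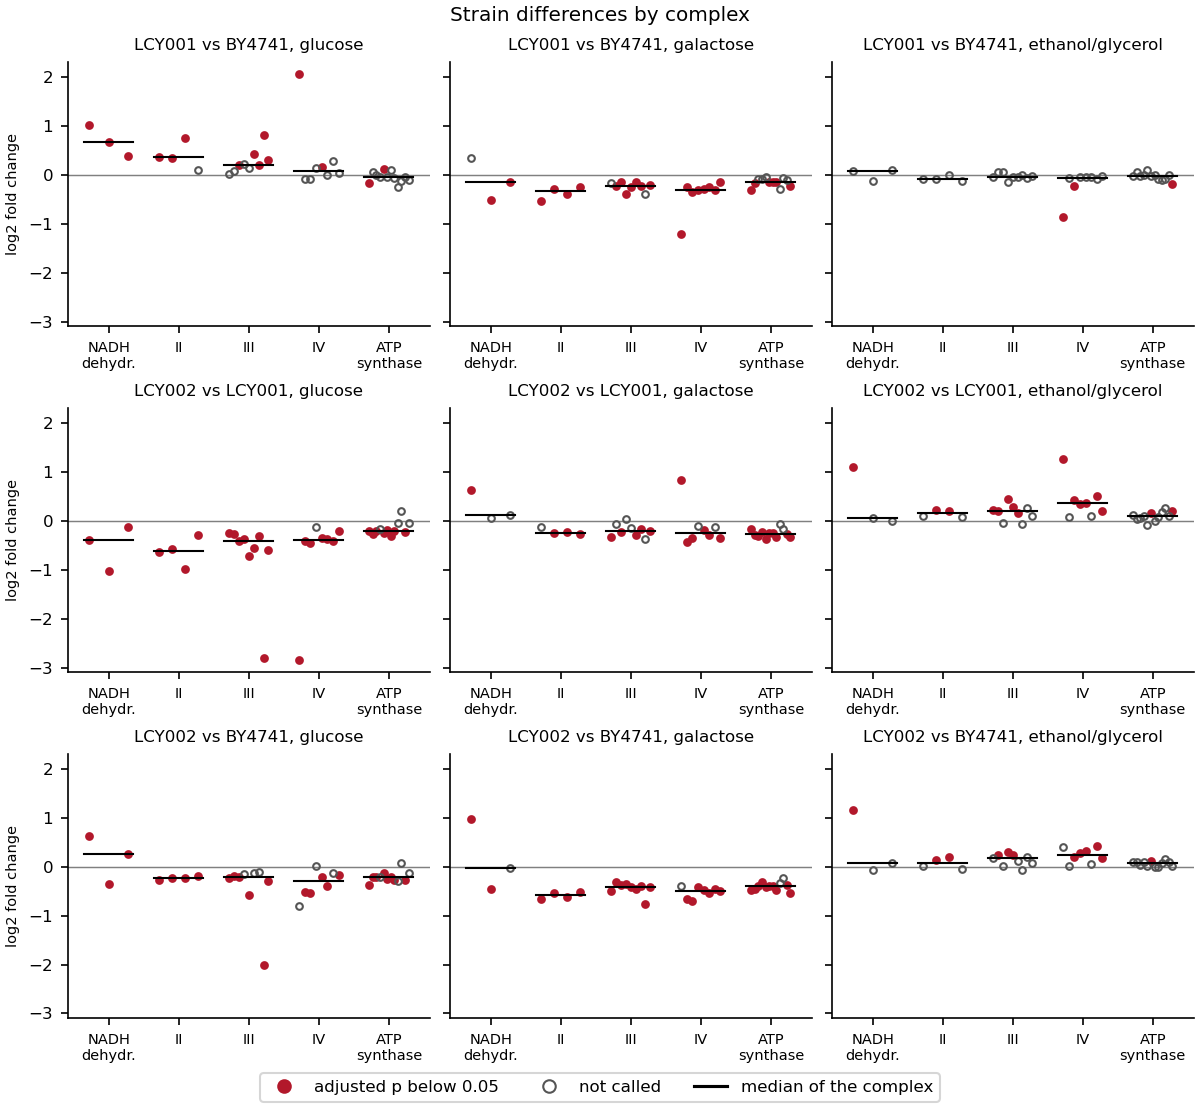
Log2 fold change of each of the 36 genes (y axis) by complex (x axis) for the 3 strain comparisons (rows) on the 3 carbon sources (columns). Red points passed the test, open grey points did not, and black bars are medians of a complex. LCY002 against LCY001 lies mostly below 0 on glucose, with 31 genes lower, and at or above 0 on ethanol/glycerol, with 16 genes higher.

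Whether the carbon source response itself differed between strains was tested as an interaction. From glucose to ethanol/glycerol LCY002 rose more than LCY001 for 32 of the 36 genes and less for 0, beside 28.3% and 32.2% of all tested genes, with a median difference of 0.46 in the log2 fold changes. Complex III and complex IV took part with 9 of 9 and 8 of 8 genes, complex II with 4 of 4, the NADH dehydrogenases with 2 of 3 and the ATP synthase with 9 of 12. From glucose to galactose 13 genes rose more in LCY002 and 1 less, beside 23.5% and 23.8%, with a median of 0.09, and the 1 was ATP20. LCY001 rose less than BY4741 from glucose to galactose for 25 genes and more for 0, beside 24.4% and 26.5%, with a median of -0.33. From glucose to ethanol/glycerol it rose less for 14 and more for 0, beside 23.3% and 22.7%, with a median of -0.15, and 0 of the 12 ATP synthase genes were among them.

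In SDH1 the strains differed more on glucose than on ethanol/glycerol. It rose by 4.25 ± 0.08 in BY4741, 3.48 ± 0.07 in LCY001 and 4.68 ± 0.08 in LCY002 from glucose to ethanol/glycerol. The difference of LCY002 and LCY001 was 1.19 ± 0.10 (adjusted p = 2.55e-10) and that of LCY001 and BY4741 -0.77 ± 0.10 (adjusted p = 1.21e-06), while on ethanol/glycerol alone LCY001 and BY4741 were at -0.004 ± 0.07 (adjusted p = 0.98). NDI1 rose by 3.01 ± 0.09, 2.21 ± 0.09 and 3.31 ± 0.09 in the same order of strains, with a difference of 1.10 ± 0.12 between LCY002 and LCY001 (adjusted p = 3.49e-08). For NDE2 the difference of LCY002 and LCY001 was 1.48 ± 0.16 (adjusted p = 2.08e-08). For QCR8 it was 1.00 ± 0.12 and for COX26, at low counts, 4.11 ± 0.43 (adjusted p = 5.1e-08 and 1.38e-08). In 14 genes LCY002 was called lower than LCY001 on glucose and higher on ethanol/glycerol. Of all tested genes 25.3% were lower on glucose and 29.4% higher on ethanol/glycerol, and the share that did both is not given here. Without BY4741 glucose replicate 1 the count of 14 genes that rose less in LCY001 than in BY4741 on ethanol/glycerol became 9, QCR10 being among those lost (-0.82, adjusted p = 0.0641).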

How the data were processed

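Polyadenylated RNA, extracted with TRIzol and selected with oligo(dT) per the labels' protocols, was sequenced from 27 yeast cultures in 9 groups of 3. Per the submitters' processing notes the tools were HISAT2 2.1.0, Bowtie2 2.2.5 and RSEM 1.2.8 with genome build R64. The sources used here do not say whether counting used strand. The authors deposited 1 table per library with RSEM expected counts and FPKM per gene. The deposited expected counts (14484847 to 16219263 per library) were rounded to whole numbers. They were fitted with edgeR 4.0.16 in R 4.3.3 (TMM factors, filterByExpr, robust quasi-likelihood test, 1 mean per group over all 27 libraries), with Benjamini-Hochberg adjustment over 5692 genes, and 303 genes did not pass the filter. The deposited FPKM values served only to compare levels between genes. The 22 comparisons are 9 between carbon sources, 9 between strains and 4 interactions. Alternatives were RLE factors, total counts, TMM factors without the array genes, no filter, the replicate number as a block, fits restricted to the groups of the comparison, DESeq2 1.42.0 and each library left out. Leaving out QCR10, QCR9 and RIP1 was added after seeing the data.

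The 36 genes and all lists were chosen with earlier results of these data known. Values in every library are given for the genes with the largest and smallest change of each complex between carbon sources in BY4741, for the 6 largest called changes in each strain comparison and for called genes against the median of their complex. In each interaction the 6 largest called are named, and of the other lists the regulators and up to 4 of the largest changes. Other genes are named as examples of their role. Replicates were individual colonies, and p-values measure the spread between these. Replicate numbers did not pair the groups, with correlations of -0.21 to 0.247 between same-numbered libraries. In simulated data with known changes the test found 94% of genes changed 1.5 fold between ethanol/glycerol and glucose in BY4741, 90% between LCY002 and LCY001 on glucose and 84% in the interaction of both. Each share is of 50 genes, and 6, 6 and 13 unchanged genes were called. All other genes had 1 mean over all groups there, unlike the real data, so scaling under wide change was not tested.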

Additional observations from a re-analysis of the deposited data

Results flagged for a closer look

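The response to the carbon source differed between strains by a test of the difference itself (edgeR's quasi-likelihood interaction, Benjamini-Hochberg adjusted over 5692 genes). For LCY001 against BY4741 the rise from glucose to galactose was smaller for 25 of the 36 genes, and the rise to ethanol/glycerol for 14. For LCY002 against LCY001 13 were larger and 1 smaller on galactose, so 14 differed, and 32 were larger on ethanol/glycerol.

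Among the largest differences on galactose in LCY001 were those of NDI1, SDH1 and SDH2, at -1.19, -1.15 and -0.89 on the log2 scale, with COX26 at -3.27, QCR10 at -1.19 and NDE2 at -0.68. On ethanol/glycerol they were -0.81 for NDI1, -0.77 for SDH1, -0.46 for SDH2 and -0.95 for NDE2, with COX26 at -2.92 and QCR10 at -0.87. In LCY002 against LCY001 the galactose differences were 1.09 for NDI1, 0.76 for SDH1, 0.56 for QCR8 and 1.02 for NDE2, with COX26 at 3.67 and QCR10 at 2.44. On ethanol/glycerol they were 1.10 for NDI1, 1.19 for SDH1, 1.00 for QCR8 and 1.48 for NDE2, with COX26 at 4.11 and QCR10 at 3.08. COX26 had few counts on glucose and the expected counts of QCR10 were not whole. The LCY001 glucose libraries enter all 4 of these tests, and the stress genes were high in those same libraries, at 8578 to 9938 CPM summed over 24 genes, beside 4129 to 4532 CPM in BY4741. Their part in these differences was not tested.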

How the results depend on the processing

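No call changed direction under any alternative run. Over the 22 comparisons of 36 genes, RLE factors ended 7 calls and added 0, total counts ended 15 and added 31, TMM factors without the array genes ended 0 and added 3, DESeq2 ended 8 and added 7, and a fit of only the libraries compared ended 14 and added 15. No filter and leaving out the uncertain genes changed none. Numbers did not pair the libraries, and the replicate block ended 1 call (CYT1, LCY001 against BY4741 on galactose) and added 1 (ATP15, LCY002 against LCY001 on ethanol/glycerol), so that these counts became 26 lower and 17 higher.

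Several small counts changed, while changes in larger counts under these alternatives are not listed here. With total counts as the scale LCY001 against BY4741 had 0 genes lower on glucose and 1 higher on galactose, LCY002 had 2 lower against LCY001 and 1 lower against BY4741 on ethanol/glycerol, and 3 genes rose less in LCY002 than in LCY001 from glucose to galactose. With DESeq2 1 gene was lower on galactose than on glucose in LCY001, 1 was higher in LCY001 than in BY4741 on galactose and 1 lower in LCY002 than in LCY001 on ethanol/glycerol. A fit of only the libraries compared left 1 gene lower in LCY001 than in BY4741 on ethanol/glycerol. The cause was not tested. With total counts the median log2 fold change of all genes from glucose to ethanol/glycerol in BY4741 was 0.23, beside 0.05 with TMM factors, a shift of 0.19.

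Leaving out 1 library gave 0 to 1 genes lower on galactose in LCY001, 0 to 1 lower in LCY001 than in BY4741 on glucose, 0 to 1 higher in LCY002 than in LCY001 on glucose, 0 to 1 higher in LCY001 than in BY4741 and 2 to 4 higher in LCY002 than in LCY001 on galactose. On ethanol/glycerol it gave 0 to 3 lower in LCY001 and 0 to 1 lower in LCY002 than in BY4741. In the interactions it gave 9 to 14 rising less in LCY001 than in BY4741 to ethanol/glycerol and 1 to 3 rising less in LCY002 than in LCY001 to galactose. LCY001 glucose replicate 3 (NDE2), LCY001 glucose replicate 2 (ATP15) and LCY002 ethanol/glycerol replicate 3 (QCR2) each added the 1. Larger counts moved as well when 1 library was left out. The 27 genes lower in LCY001 than in BY4741 on galactose became 20 to 29. On glucose the 31 genes lower in LCY002 than in LCY001 became 26 to 31, and the 24 lower than in BY4741 became 19 to 23. Genes with few counts, COX26 and QCR10, are limited by depth.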
